A study of Mus musculus with 11 samples.

Results

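The S100 and annexin genes encode 2 families of calcium-binding proteins, and 8 of them were followed here: S100a4, S100a6, S100a8, S100a9, S100a10, S100a11, Anxa1 and Anxa2. A gene was represented by the probe set annotated to its symbol alone, and by the one with the highest mean where several were. All 8 were measured, out of 19938 genes with such a probe set. The 8 genes were chosen from results of these same arrays, so their levels and differences are given as a description and were not tested; tests were kept for the other genes of both families and for their partners.

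Expression was measured on 11 Affymetrix arrays of sorted cells from C57BL/6J mice, 1 array per sample. Bone marrow gave hematopoietic stem cells (HSC), multipotent progenitors primed for the lymphoid lineages (LMPP), and CLP, the common lymphoid progenitors. Thymus gave the early precursors called ETP and the later double negative stages DN2 and DN3. Each population had 2 arrays except DN2, which had 1. No group was treated or carried a modified allele, and neither ages nor gates of the sort are stated in the sources used here. Values are log2 intensities after robust multi-array averaging (RMA), so a difference of 1 is a doubling of intensity. Probe sets differ in how brightly they bind, so levels were compared between populations within a gene and never between genes. Precision is limited by the small number of arrays.

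S100 proteins are small dimeric proteins built from EF-hands, the helix-loop-helix motif that binds calcium, and calcium binding opens a surface that grips a partner. Annexins bind phospholipid membranes in a calcium-dependent way, and several act as a pair with an S100 protein: S100a10 with Anxa2, and S100a11 with Anxa1. S100a8 and S100a9 form calprotectin, an abundant cytosolic complex of neutrophils and monocytes that also signals outside the cell through Tlr4 and the receptor Ager. S100a4 binds the heavy chain of non-muscle myosin, and S100a6 binds Cacybp, a subunit of ubiquitin ligases.

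The promoters of 6 of these genes are shown because they belong to the genes that were highest in ETP (S100a4, S100a6, S100a8, S100a9) and to the annexins that differed most in opposite directions between ETP and DN3 (Anxa1, Anxa2). Each is the RefSeq window of 300 bases in GRCm38.p6, from 250 bases before to 50 bases after the annotated start, written 5′ to 3′ on the gene's strand. Their positions are chr3:90603520-90603819 (plus strand) for S100a4, chr3:90612644-90612943 (plus) for S100a6, chr3:90668821-90669120 (plus) for S100a8, chr3:90695672-90695971 (minus) for S100a9, chr19:20390622-20390921 (minus) for Anxa1 and chr9:69453433-69453732 (plus) for Anxa2. Capitals mark matches, on either strand, to the letters TATAAA of the core promoter box, GAGGAAG of PU.1, TTNNGNAAT of C/EBP, TGTGGT of Runx, TGANTCA of AP-1 or GGGCGG of Sp1.
S100a4: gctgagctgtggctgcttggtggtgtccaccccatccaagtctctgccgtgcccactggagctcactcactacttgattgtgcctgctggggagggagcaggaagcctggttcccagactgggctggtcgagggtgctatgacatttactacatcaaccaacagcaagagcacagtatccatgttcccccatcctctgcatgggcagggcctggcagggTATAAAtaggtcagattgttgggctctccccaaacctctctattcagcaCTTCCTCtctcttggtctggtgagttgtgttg
S100a6: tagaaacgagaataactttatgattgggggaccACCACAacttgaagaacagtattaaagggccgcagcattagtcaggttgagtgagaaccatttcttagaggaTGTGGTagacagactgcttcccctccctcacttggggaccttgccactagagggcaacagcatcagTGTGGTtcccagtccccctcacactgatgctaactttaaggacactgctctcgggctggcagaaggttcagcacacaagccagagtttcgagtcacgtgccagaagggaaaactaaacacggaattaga
S100a8: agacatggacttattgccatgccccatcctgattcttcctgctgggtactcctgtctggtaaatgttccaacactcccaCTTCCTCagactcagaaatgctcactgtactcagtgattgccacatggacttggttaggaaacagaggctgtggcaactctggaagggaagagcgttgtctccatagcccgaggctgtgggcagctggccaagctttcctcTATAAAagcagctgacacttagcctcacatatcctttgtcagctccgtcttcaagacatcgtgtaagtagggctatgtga
S100a9: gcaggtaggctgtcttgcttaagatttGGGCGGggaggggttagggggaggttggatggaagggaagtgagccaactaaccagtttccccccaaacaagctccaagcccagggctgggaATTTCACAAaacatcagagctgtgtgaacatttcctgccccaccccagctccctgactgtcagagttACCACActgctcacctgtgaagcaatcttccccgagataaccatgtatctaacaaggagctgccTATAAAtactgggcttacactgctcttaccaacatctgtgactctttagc
Anxa1: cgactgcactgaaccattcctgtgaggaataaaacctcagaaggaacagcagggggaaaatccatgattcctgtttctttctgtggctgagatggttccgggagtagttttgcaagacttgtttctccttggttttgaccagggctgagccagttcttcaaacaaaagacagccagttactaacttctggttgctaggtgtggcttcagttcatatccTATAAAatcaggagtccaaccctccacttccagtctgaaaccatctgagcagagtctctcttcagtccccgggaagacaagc
Anxa2: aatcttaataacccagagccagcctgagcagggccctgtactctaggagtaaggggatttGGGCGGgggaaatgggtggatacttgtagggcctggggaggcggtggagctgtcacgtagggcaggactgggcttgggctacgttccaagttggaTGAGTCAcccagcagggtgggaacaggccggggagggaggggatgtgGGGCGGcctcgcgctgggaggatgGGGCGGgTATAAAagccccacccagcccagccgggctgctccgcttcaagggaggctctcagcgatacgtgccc

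A RefSeq window was found for 7 of the 8 genes. TATAAA occurred in 5 of the 7 windows, against 13.6% of all 32851 windows of that length. It began at position -31 from the annotated start in S100a4, -30 in S100a8, -32 in Anxa1 and -17 in Anxa2. In S100a9 it began at position 1, on the annotated start itself. The PU.1 letters, named for a myeloid transcription factor, stood in S100a4 and S100a8, against 13.6% of all windows. The C/EBP letters were found in S100a9 alone of the 7, against 11.5% of all windows, and the Runx letters in S100a9 and S100a6, against 16.8%. The AP-1 letters stood in Anxa2 and S100a11, against 7.81% of all windows, and GGGCGG in S100a9, S100a11 and Anxa2, against 35.7%. Motifs were searched separately, no binding was measured, and a match is a run of letters rather than a site in use. The share of G and C was 47.3% in the Anxa1 window and 63.7% in that of Anxa2, with a median of 52.7% over all windows, and the S100a4 and S100a9 windows had 55.3% and 51.3%.

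Some facts of the whole series bear on every value below. Arrays of the same population correlated at r between 0.988 and 0.996 over all genes, and the array medians over all probe sets lay between 6.01 and 6.12. Of the markers listed for each label, 4 of 5 were highest in HSC, 2 of 3 in LMPP, 3 of 5 in CLP, 1 of 4 in DN2 and 5 of 6 in DN3. For ETP, 0 of 3 were: Kit was highest in HSC at 9.47, against 9.37 in ETP, Hes1 in DN3 at 8.40, against 8.23, and Cd44 in CLP at 8.51, against 8.37. Il2ra, the interleukin 2 receptor chain whose surface display marks DN2 and DN3, read 7.32 in ETP, 11.40 in DN2 and 11.27 in DN3. On the marrow arrays Il2ra read 4.07 to 4.49. In sorted bulk samples, fewer cells that express a gene and less RNA per cell cannot be told apart.

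The 8 genes varied widely between populations. The difference between the highest and the lowest population mean was at least 1 log2 unit for 7 of the 8, against 8.20% of all 19938 genes, whose median range was 0.34. The ranges ran from 0.76 for S100a11 to 4.66 for S100a4, and S100a4 exceeded 99.8% of all genes. The genes were chosen on such differences, so these shares describe them and support nothing further. Of the 8, 4 were highest in ETP, 2 in DN2, 1 in HSC and 1 in DN3, while 5 were lowest in DN3, 2 in CLP and 1 in LMPP. Of all genes, 12.01% were highest in ETP and 20.6% lowest in DN3.

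**Figure D1:**
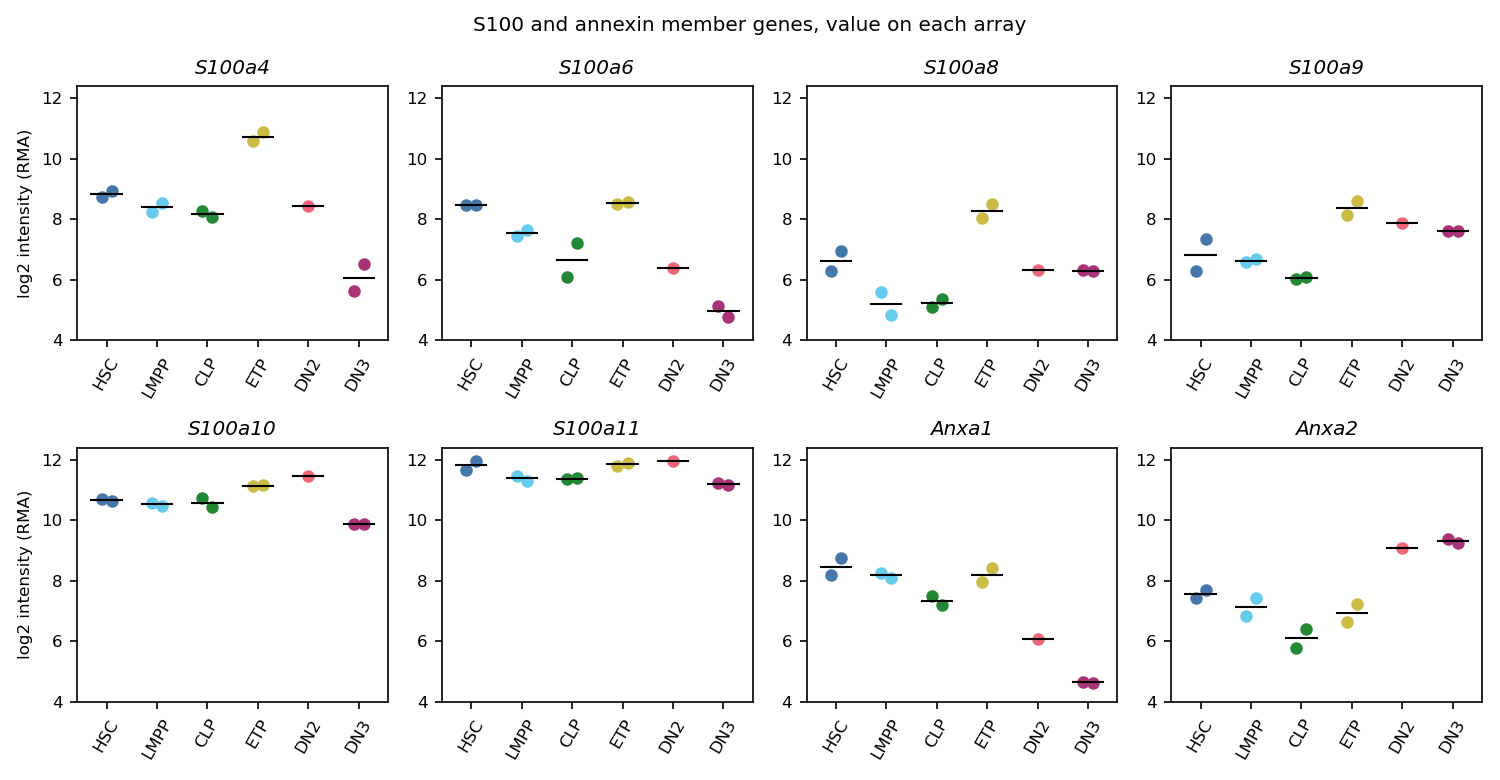
Log2 intensity (RMA) of each of the 8 genes on each of the 11 arrays, by population; points are arrays, bars are population means and DN2 has 1 array. S100a4, S100a6, S100a8 and S100a9 have their highest mean in ETP, Anxa1 is lowest in DN3 at 4.65 and Anxa2 is highest there at 9.30.

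S100a8 and S100a9, the calprotectin subunits, were both highest in ETP. S100a8 read 6.29 and 6.94 in HSC, 5.59 and 4.83 in LMPP, 5.11 and 5.38 in CLP, 8.05 and 8.50 in ETP, 6.33 in DN2, and 6.31 and 6.29 in DN3. Both ETP arrays lay above all the others, the LMPP and CLP arrays overlapped at the bottom, and HSC, DN2 and DN3 lay between them. The ETP mean of 8.28 ± 0.32 (SD, n = 2) was 3.06 above LMPP, or 8.34-fold, and 1.66 above HSC, or 3.16-fold, with an SD pooled over the replicated populations of 0.36. The lowest population was LMPP with all arrays, at 5.21, and CLP, at 5.25 or 5.11, without the second LMPP or the second CLP array. The second LMPP array lay below its 25th percentile of genes, 5.09, and the first above its own, 5.17.

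S100a9 read 6.31 and 7.33 in HSC, 6.59 and 6.68 in LMPP, 6.04 and 6.11 in CLP, 8.16 and 8.61 in ETP, 7.88 in DN2, and 7.61 and 7.63 in DN3. The 3 thymic populations were all above the 3 marrow populations for this gene, with no array overlapping. The ETP mean of 8.38 ± 0.32 was 2.31 above CLP, or 4.94-fold, and the pooled SD was 0.36. The partners differed after ETP: from ETP to DN2, S100a8 was lower by 1.95 and S100a9 by 0.51, and the DN3 means were 6.30 for S100a8, against 5.25 in CLP, and 7.62 for S100a9, against 6.08 in CLP. Over the 11 arrays the pair correlated at r = 0.84, a value that shares arrays and their normalisation and is given as a description.

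S100a4, the myosin-binding member, had the widest range of the 8. It read 8.72 and 8.92 in HSC, 8.25 and 8.55 in LMPP, 8.28 and 8.08 in CLP, 10.60 and 10.87 in ETP, 8.44 in DN2, and 5.62 and 6.52 in DN3. ETP stood above and DN3 below all other arrays, and LMPP overlapped with both DN2 and CLP. The mean of 10.73 ± 0.19 in ETP was 25.3-fold above the mean of 6.07 ± 0.63 in DN3, a difference of 4.66. Without the first DN3 array this difference was 4.21, and without the second it was 5.11. The passage from ETP to DN3 was made of similar steps, with DN2 lower than ETP by 2.29 and DN3 lower than DN2 by 2.37.

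S100a6, calcyclin, was close in HSC and ETP and lower elsewhere. It read 8.47 and 8.45 in HSC, 7.44 and 7.63 in LMPP, 6.08 and 7.20 in CLP, 8.52 and 8.57 in ETP, 6.39 in DN2, and 5.14 and 4.78 in DN3. The means of 8.55 in ETP and 8.46 in HSC differed by 0.09, under the pooled SD of 0.38, and CLP overlapped with DN2. LMPP was lower than HSC by 0.92, CLP lower than LMPP by 0.90, and ETP 1.91 above CLP, or 3.75-fold. DN3 was 12.01-fold below ETP. Its 2 arrays read near the 25th percentile of genes, 5.05 on the first and 5.003 on the second.

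Anxa1, the annexin that dampens inflammation through formyl peptide receptors, had similar levels in HSC, LMPP and ETP and low ones in later thymocytes. It read 8.18 and 8.76 in HSC, 8.26 and 8.10 in LMPP, 7.48 and 7.19 in CLP, 7.96 and 8.41 in ETP, 6.08 in DN2, and 4.66 and 4.63 in DN3. HSC, LMPP and ETP overlapped, CLP was lower than they were, and DN2 and DN3 stood below every other array. The mean was 8.47 ± 0.41 in HSC and 4.65 ± 0.02 in DN3, a difference of 3.82, or 14.1-fold, which was 3.53 and 4.11 without the second and the first HSC array. Without the second HSC array the highest mean was that of ETP, 8.18. On the DN3 arrays Anxa1 lay below the 25th percentile of genes, which was 5.003 to 5.17 over the arrays. Anxa1 and S100a6 correlated at r = 0.91 over the 11 arrays, the highest value of the 28 pairs of the 8 genes.

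Anxa2, the membrane-scaffold annexin, had the opposite order in the thymus. It read 7.43 and 7.68 in HSC, 6.84 and 7.43 in LMPP, 5.78 and 6.41 in CLP, 6.63 and 7.24 in ETP, 9.08 in DN2, and 9.36 and 9.24 in DN3. DN2 and DN3 lay above every other array, CLP lay below them all, and LMPP overlapped with both HSC and ETP. DN2 was 2.14 above ETP, or 4.41-fold, and DN3 was 2.37 above ETP, or 5.16-fold, while Anxa1 was lower by 2.11 and 3.54 in the same comparisons. Between marrow populations both annexins were lower in CLP than in LMPP, Anxa1 by 0.84 and Anxa2 by 1.04. Their correlation over the 11 arrays was r = -0.74, the lowest of the 28 pairs.

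S100a10, the Anxa2 partner that has lost the ability to bind calcium, varied less. It read 10.71 and 10.63 in HSC, 10.57 and 10.48 in LMPP, 10.72 and 10.44 in CLP, 11.13 and 11.16 in ETP, 11.46 in DN2, and 9.88 and 9.89 in DN3. CLP overlapped with HSC and with LMPP, while both HSC arrays lay above both LMPP arrays. ETP and DN2 lay above the marrow populations and DN3 below them. Without the DN2 array, ETP had the highest mean, 11.14. DN2 was 1.57 above DN3, or 2.98-fold, with a pooled SD of 0.10. In DN3, where Anxa2 was highest, S100a10 was lowest, and the correlation of these binding partners was r = -0.32 over the 11 arrays.

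**Figure D2:**
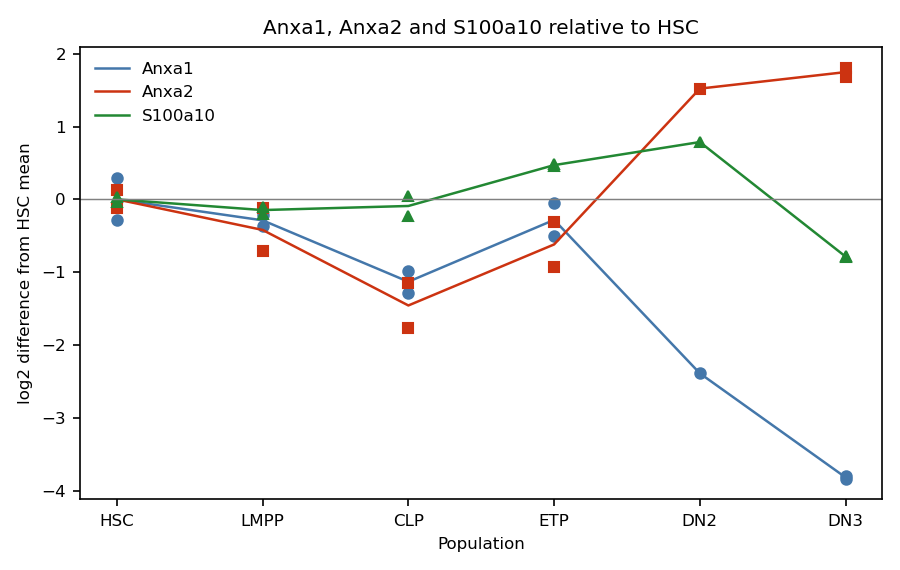
Log2 difference of Anxa1 (circles), Anxa2 (squares) and S100a10 (triangles) from the gene's own HSC mean, by population; symbols are arrays, lines join population means and DN2 has 1 array. Anxa1 and Anxa2 stay close from HSC to ETP and part in DN2 and DN3, where Anxa2 is above and Anxa1 below the HSC mean, and S100a10 is above it in DN2 and below it in DN3.

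S100a11, calgizzarin, the Anxa1 partner, had the smallest range. It read 11.67 and 11.95 in HSC, 11.47 and 11.29 in LMPP, 11.35 and 11.39 in CLP, 11.80 and 11.87 in ETP, 11.96 in DN2, and 11.23 and 11.17 in DN3. HSC overlapped with ETP and LMPP with CLP, and DN3 lay below all other arrays. Without the DN2 array, ETP had the highest mean, 11.84. DN2 was 0.76 above DN3, or 1.69-fold, with a pooled SD of 0.11, and 86.0% of all genes had a smaller range. A second probe set for S100a11 ran parallel, with means of 11.40 in HSC, 10.91 in LMPP, 10.96 in CLP, 11.42 in ETP, 11.55 in DN2 and 10.78 in DN3. S100a10 and S100a11 correlated at r = 0.84.

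Read by step rather than by gene, the 8 genes gave these differences of means. In LMPP all 8 means were lower than in HSC, with overlapping arrays for S100a9, Anxa1 and Anxa2. The median was -0.42, against 0.03 over all genes, of which 57.4% were higher. In CLP 6 of the 8 were lower than in LMPP, with a median of -0.39, against -0.02 over all genes, of which 45.3% were higher. In ETP 7 were higher than in LMPP (median 0.81, Anxa1 by 0.0057 only) and 8 were higher than in CLP (median 1.38), where the medians over all genes were -0.03 and -0.01. Of all genes, 43.4% were higher in ETP than in LMPP and 47.8% higher than in CLP. Against HSC, 6 means were higher in ETP and 2, those of Anxa1 and Anxa2, were lower (median 0.28, with 51.4% of all genes higher). Of these, S100a11 (0.03) and Anxa1 (-0.28) had overlapping arrays, and S100a6 differed by less than its pooled SD. In DN2, S100a10, S100a11 and Anxa2 were above ETP and the other 5 below it, where 49.2% of all genes were higher. In DN3, 7 of the 8 were below DN2 and below ETP, with medians of -1.09 and -1.61, and Anxa2 alone was above both. Of all genes, 49.9% were higher in DN3 than in DN2 and 49.1% higher than in ETP. These comparisons share arrays, and the DN2 values rest on 1 array. Overlap of arrays was not counted over all genes, so it has no share to stand beside.

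The 8 genes were chosen by family and by levels on these arrays, so their order on the chromosome is given as a description. Of all genes, 12.01% were highest in ETP and 13.5% in DN2. In the RefSeq order of GRCm38.p6, 15 S100 genes lie on chromosome 3, and 6 of the 8 genes are among them. S100a4, S100a5 and S100a6 follow each other, and all 3 had their highest mean in ETP. S100a8 and S100a9 are neighbours, both highest in ETP. S100a11 and S100a10 are also neighbours, separated from S100a9 by 56 coding genes, and both were highest in DN2. Of the genes between these, S100a7a, which lies between S100a6 and S100a8, was highest in LMPP, at 6.36, and lowest in ETP, at 5.85. S100a2, next to S100a4, was highest in CLP. On the far side, S100a1, S100a13 and S100a16 were highest in HSC, S100a14 in LMPP and S100a3 in ETP.

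The rest of both families was tested with limma, in 1 fit of 6 population means with p-values adjusted by Benjamini-Hochberg over all 19938 genes and a call at adjusted p under 0.05. The fit assumes that DN2 varies like the other populations. The labels do not say whether replicates came from separate animals, so the p-values may measure technical spread only. Of the 21 other S100 and annexin genes measured, 6 differed between populations by the F test, and 9 at an unadjusted p under 0.05, where 12.2% of all genes were called. They were S100a1 and S100a5 among 11 S100 genes, and Anxa3, Anxa4, Anxa5 and Anxa9 among 10 annexins. The other 15 were S100a2, S100a3, S100a7a, S100a13, S100a14, S100a16, S100b, S100g, S100z, Anxa6, Anxa7, Anxa8, Anxa10, Anxa11 and Anxa13, whose population means spanned 0.14 (Anxa8) to 1.12 (S100a2).

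**Figure D3:**
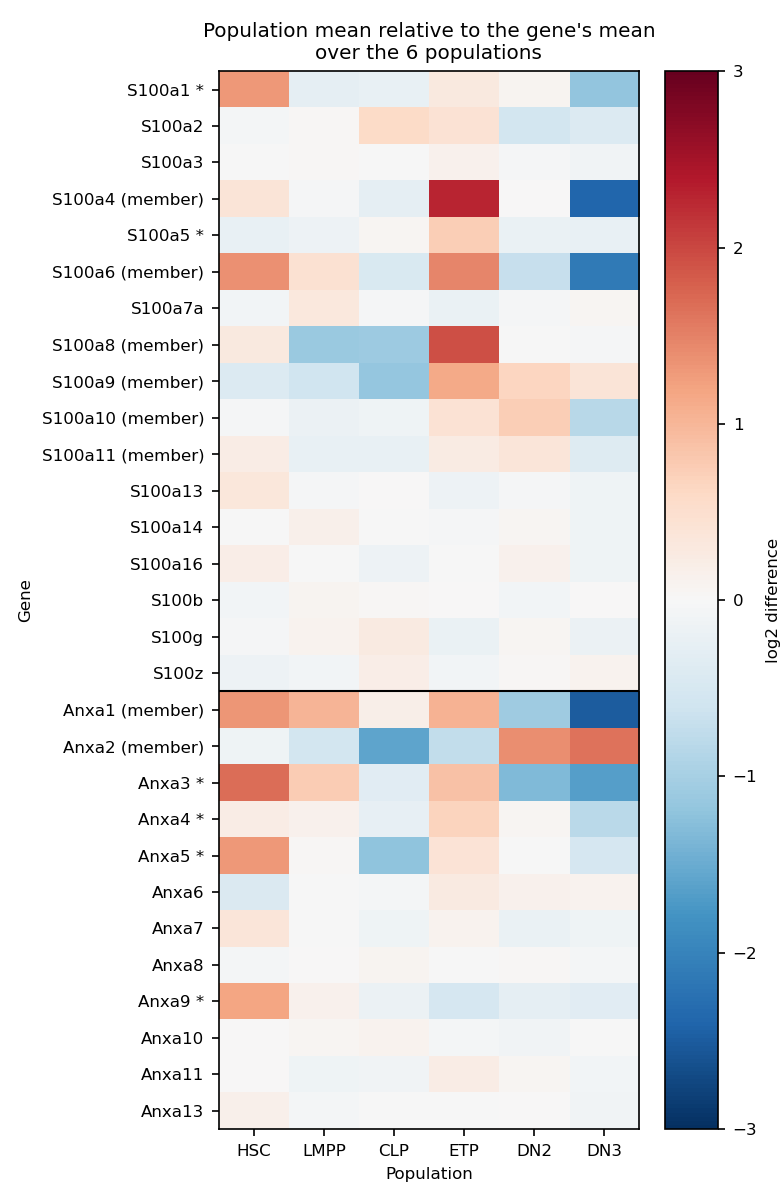
Mean log2 intensity of each S100 and annexin gene in each population, less the gene's mean over the 6 populations; red is higher and blue lower, "member" marks the 8 genes and an asterisk the 6 others called by limma's F test at adjusted p under 0.05. The strongest red cell is S100a4 in ETP, and Anxa1 and S100a4 are the bluest in DN3.

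Anxa5, the phosphatidylserine-binding annexin used to stain dying cells, fell along the marrow path and was higher again in ETP. It read 10.30 and 9.99 in HSC, 8.99 and 8.80 in LMPP, 7.59 and 7.70 in CLP, 9.10 and 9.40 in ETP, 8.83 in DN2, and 8.25 and 8.42 in DN3. It fell by 1.25 from HSC to LMPP (SE 0.15, limma adjusted p = 0.001401) and fell by 1.24 from LMPP to CLP (SE 0.15, limma adjusted p = 0.002713), and ETP was 1.61 above CLP (SE 0.15, limma adjusted p = 0.0002203). ETP remained below HSC by a difference of -0.89 (limma adjusted p = 0.006224, and 0.06779 without the first ETP array), and DN3 was -0.92 from ETP (limma adjusted p = 0.003708, and 0.05153 without the first DN3 array). CLP was the lowest population for Anxa5, as it was for Anxa2 and S100a9.

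Anxa3, an annexin abundant in neutrophils, was highest in HSC and lowest in DN3, as Anxa1 was. It read 8.27 and 8.80 in HSC, 7.54 and 7.68 in LMPP, 6.98 and 6.05 in CLP, 7.70 and 7.76 in ETP, 5.52 in DN2, and 5.004 and 5.36 in DN3. It fell by 2.55 from ETP to DN3 (SE 0.27, limma adjusted p = 0.0001621). The DN2 array was -2.21 from ETP (SE 0.33, limma adjusted p = 0.009463), a call that was lost without the first ETP array (adjusted p = 0.05248) or the second (0.07036). ETP was 1.22 above CLP at limma adjusted p = 0.04398, which left the threshold without either ETP array (adjusted p = 0.175 and 0.2504), either LMPP array (0.06969 each), either DN3 array (0.06956 each) or the second CLP array (0.1752), and under renewed quantile normalization (0.09028) or centring (0.05529). Without either CLP array Anxa3 was also called from HSC to LMPP (adjusted p = 0.03145) and from HSC to ETP (0.03881), and without the first CLP array from LMPP to CLP (0.019).

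Anxa4, a membrane-aggregating annexin, was highest in ETP and lowest in DN3, like S100a4. It read 7.88 and 7.65 in HSC, 7.603 and 7.74 in LMPP, 7.50 and 7.14 in CLP, 8.10 and 8.35 in ETP, 7.603 in DN2, and 6.62 and 6.86 in DN3. It fell by 1.48 from ETP to DN3 (SE 0.16, limma adjusted p = 0.000189). ETP was 0.90 above CLP (SE 0.16, limma adjusted p = 0.01412), a call lost without the second CLP array (adjusted p = 0.098) or the second ETP array (0.144). Anxa9 read 7.04 and 6.17 in HSC against 4.73 and 5.09 in ETP, a fall of 1.69 (SE 0.25, limma adjusted p = 0.002755), and its means in the other populations lay between 5.08 and 5.54. Its difference of LMPP from HSC, -1.07, had a limma adjusted p of 0.05564, and 0.005296 without the second HSC array.

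S100a5 lies between S100a4 and S100a6 and was dim everywhere. It read 4.78 and 5.002 in HSC, 5.04 and 4.87 in LMPP, 5.29 and 5.06 in CLP, 5.83 and 5.84 in ETP, 4.92 in DN2, and 4.77 and 4.99 in DN3. Both ETP arrays stood above all others, while the rest lay near the 25th percentile of genes. ETP was 0.95 above HSC (SE 0.14, limma adjusted p = 0.002301), and DN3 was -0.96 from ETP (SE 0.14, limma adjusted p = 0.001435). ETP was also 0.88 above LMPP (SE 0.14, limma adjusted p = 0.007171), a call lost without the second LMPP array (adjusted p = 0.06426), the first ETP array (0.05235) or the second (0.06065). Its differences of ETP from CLP, 0.66 (limma adjusted p = 0.03267), and of DN2 from ETP, -0.92 (limma adjusted p = 0.03174), were past the threshold with all arrays. The first was lost without either CLP, ETP or DN3 array (adjusted p from 0.05336 to 0.1911) and the second without either ETP or DN3 array (0.05431 to 0.1443).

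S100a1, a heart and brain S100 protein whose gene lies next to S100a13 in the RefSeq order, was highest in HSC. It read 8.94 and 8.53 in HSC, 6.67 and 7.69 in LMPP, 6.83 and 7.59 in CLP, 7.63 and 7.84 in ETP, 7.53 in DN2, and 6.41 and 6.08 in DN3. LMPP was -1.56 from HSC (SE 0.32, limma adjusted p = 0.0275), and this call was lost without either HSC array (adjusted p = 0.1731 and 0.05167), the first LMPP array (0.1604) or either ETP array (0.05078 each), and with arrays centred (0.05311) or weighted (0.05291). DN3 was -1.49 from ETP (SE 0.32, limma adjusted p = 0.0181), lost without any 1 of the 2 ETP and 2 DN3 arrays (adjusted p from 0.06462 to 0.1659). S100a13 was called from HSC to ETP alone, by -0.49 (limma adjusted p = 0.03629), and that call was lost without any 1 of the HSC, ETP or DN3 arrays (adjusted p from 0.06656 to 0.2257) and under 3 other settings (0.05386 to 0.07661).

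Counted by comparison, limma called 2 of the 21 other family genes in LMPP against HSC, both lower, where 2.94% of all genes were called in either direction. From LMPP to CLP 1 was called, lower (1.14% of all genes). In ETP 1 was higher than in LMPP (2.31%) and 4 were higher than in CLP (2.52%). S100a7a, lower in ETP than in LMPP by 0.51, was just short of a call (limma adjusted p = 0.05004). Against HSC, ETP had 1 higher and 3 lower (5.13%). From ETP to DN2, 2 were lower (0.998%), and from DN2 to DN3 limma called 0 (1.80% of all genes), with 3 at an unadjusted p under 0.05. From ETP to DN3, 5 were lower (6.57%). The medians of the 21 differences lay between -0.12 and 0.05, beside medians between -0.03 and 0.03 over all genes. Leaving out 1 array moved several of these small counts. The LMPP against HSC count was 1 without the first HSC, the first LMPP or either ETP array. The CLP against LMPP count was 2 without the first CLP array. The ETP against LMPP count was 2 without either HSC array and 0 without the second LMPP or either ETP array. The ETP against CLP count was 1 without the second CLP or second ETP array, and 2 without the first ETP or either DN3 array. The ETP against HSC count was 2 without the first ETP array. The DN2 against ETP count was 0 without either ETP array and 1 without either DN3 array, and the DN3 against ETP count was 3 without the first DN3 array.

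Of the partners and receptors of these proteins, 20 of 23 listed genes were measured and 4 were called by limma's F test (6 at an unadjusted p under 0.05), where 12.2% of all genes were called. Tlr4, a receptor for calprotectin, read 6.06 and 5.85 in HSC, 6.20 and 6.04 in LMPP, 5.65 and 5.49 in CLP, 5.79 and 6.01 in ETP, 4.79 in DN2, and 4.46 and 4.35 in DN3. It fell by 1.497 from ETP to DN3 (SE 0.13, limma adjusted p = 4.57e-05). DN2 was -1.12 from ETP (SE 0.16, limma adjusted p = 0.008074, and 0.06829 without the second ETP array). Ager, the other calprotectin receptor, had population means within 0.19 of each other.

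Pla2g4a, the cytosolic phospholipase that annexin A1 inhibits, read 9.23 and 9.36 in HSC, 8.32 and 8.31 in LMPP, 7.52 and 7.35 in CLP, 9.16 and 9.60 in ETP, 9.13 in DN2, and 7.80 and 7.94 in DN3. It fell by 0.99 from HSC to LMPP (SE 0.15, limma adjusted p = 0.005501), and ETP was above LMPP by 1.07 (SE 0.15, limma adjusted p = 0.003836) and above CLP by 1.94 (SE 0.15, limma adjusted p = 5.355e-05). DN3 was -1.51 from ETP (limma adjusted p = 0.0001069) and -1.26 from DN2 (limma adjusted p = 0.005126). CLP was -0.87 from LMPP (limma adjusted p = 0.02089), a call lost without any 1 of the LMPP and CLP arrays (adjusted p from 0.07136 to 0.1359). The DN2 array lay just below the HSC and ETP arrays and was not called against ETP (limma adjusted p = 1).

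Cybb, the oxidase subunit to which calprotectin delivers arachidonic acid in phagocytes, read 5.13 and 5.09 in HSC, 4.60 and 4.75 in LMPP, 5.81 and 6.29 in CLP, 5.88 and 6.02 in ETP, 5.18 in DN2, and 4.70 and 4.78 in DN3. It was above LMPP by 1.38 in CLP (SE 0.15, limma adjusted p = 0.001533) and by 1.28 in ETP (SE 0.15, limma adjusted p = 0.001422), and it fell by 1.21 from ETP to DN3 (limma adjusted p = 0.0006088). ETP was 0.85 above HSC (limma adjusted p = 0.008853, and 0.08219 without the second ETP array), and DN2 was called below ETP without either CLP array (0.0448). Ahnak, the giant scaffold bound by S100a10 and Anxa2, was called by the F test (adjusted p = 0.01068, and 0.05019 without the second DN3 array) and, with all arrays, in none of the 8 pairwise comparisons, with means from 5.83 in DN3 to 6.88 in CLP. DN3 was called below ETP with array weights (adjusted p = 0.034) or without either CLP array (0.03309), and ETP below CLP without the first CLP array (0.0274). By comparison, limma called 1 of the 20 lower in LMPP against HSC (2.94% of all genes called), 1 higher and 1 lower in CLP against LMPP (1.14%), and 2 higher in ETP against LMPP (2.31%). It called 1 higher in ETP against each of CLP (2.52%) and HSC (5.13%). It called 1 lower in DN2 against ETP (0.998%), 1 lower in DN3 against DN2 (1.80%) and 3 lower in DN3 against ETP (6.57%).

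S100a8 and S100a9 are neutrophil proteins by name, so genes of other cell types were set beside them. The summed linear intensity of 19 neutrophil and granule genes was 7151 to 7699 in HSC, 3034 to 3124 in LMPP, 1548 to 2027 in CLP, 3481 to 3841 in ETP, 1321 in DN2 and 704 to 742 in DN3. The sum was highest in HSC, where Mpo and Ctsg made up most of it. Ltf, Ngp, Camp, Lcn2, Mmp8, Mmp9, Ly6g, Retnlg, Fcnb and Chil3 had narrow ranges, from 0.12 for Mmp9 to 0.36 for Camp. The rest of the list, Itgam, Csf3r, Lyz2, Cxcr2, Prtn3, Elane, Ms4a3, Ctsg and Mpo, had ranges from 0.85 for Itgam to 5.82 for Mpo. The part of neutrophils in the levels of S100a8 and S100a9 was not tested. The population means of the 19 genes spanned 0.12 for Mmp9 to 5.82 for Mpo, and limma's F test called 9 of them (12.2% of all genes). In LMPP against HSC limma called 6 of the 19 lower (2.94% of all genes), and in CLP against LMPP 3 lower (1.14%). In ETP against LMPP it called 2 higher and 1 lower (2.31%), and in ETP against CLP 4 higher (2.52%). Against HSC it called 5 lower in ETP (5.13%). From ETP to DN2 it called 5 lower (0.998%), from DN2 to DN3 2 lower (1.80%) and from ETP to DN3 8 lower (6.57%). The 4 with the widest ranges were all highest in HSC. Mpo, myeloperoxidase, had means of 11.55 in HSC, 9.72 in CLP, 10.71 in ETP and 5.73 in DN3, and Ctsg, cathepsin G, of 10.68, 6.64, 9.36 and 5.58. Ms4a3, a gene of granulocyte and monocyte progenitors, had means of 9.73 in HSC, 5.15 in CLP, 8.27 in ETP and 4.93 in DN3, and Elane, neutrophil elastase, of 8.60, 5.15, 6.48 and 5.12. Counts of calls among marker genes were made with all arrays in place.

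**Figure D4:**
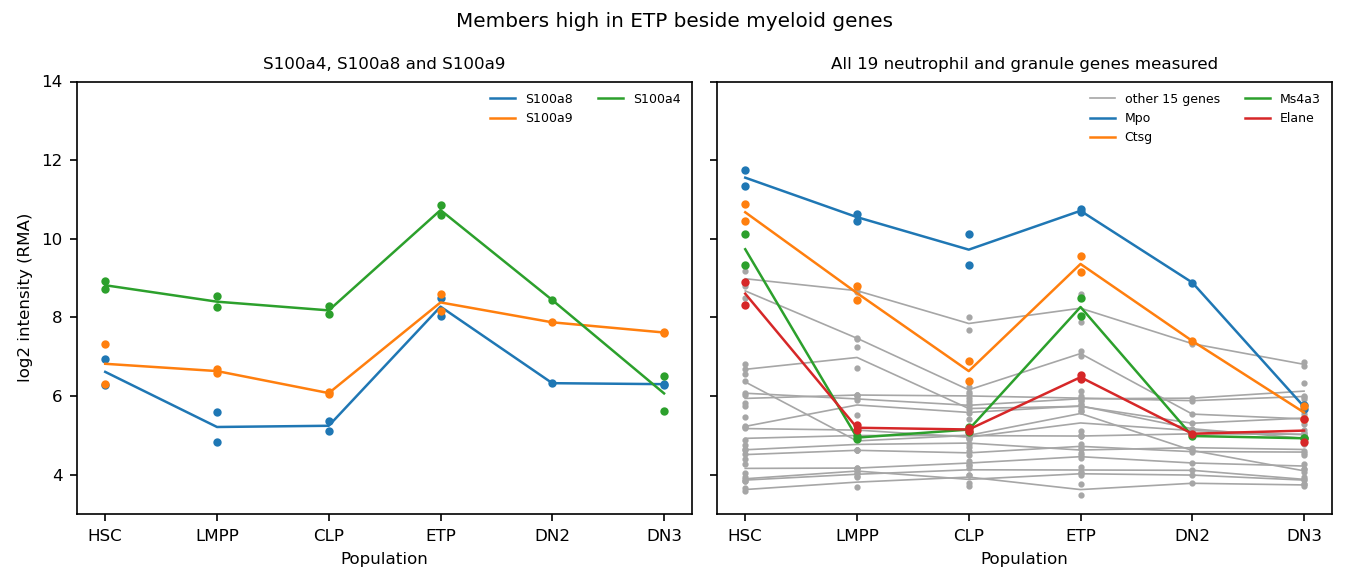
Log2 intensity (RMA) by population of S100a4, S100a8 and S100a9 (left) and of all 19 neutrophil and granule genes measured (right), of which the 4 with the widest ranges are coloured and the other 15 grey; points are arrays and lines join population means. S100a4, S100a8 and S100a9 have their highest mean in ETP, and the coloured genes on the right are higher in ETP than in CLP and highest in HSC.

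The summed intensity of 9 macrophage genes was between 373 and 522 on all arrays, and limma's F test called 1 of them, where 12.2% of all genes were called. This was Csf1r, the receptor for macrophage colony-stimulating factor, which was highest in ETP, with means of 5.67 in HSC, 6.44 in ETP, 5.39 in DN3 and 5.55 on the DN2 array. It was 0.77 above HSC in ETP (limma adjusted p = 0.003235) and fell by 1.05 from ETP to DN3 (limma adjusted p = 0.0002663). Mrc1 had the widest range of the list, 1.58, and read 6.93 and 4.84 in HSC. It was not called (limma F test, adjusted p = 0.2556).

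The summed intensity of 9 mast cell and basophil genes was 1606 to 1874 in HSC, 388 to 474 in LMPP and CLP, 1294 to 1660 in ETP, 2502 in DN2 and 773 to 798 in DN3. Most of the DN2 sum came from Cpa3. Every other gene of the list was lower on the DN2 array than its means in HSC and in ETP. The F test called 5 of the 9 (12.2% of all genes). Against HSC, limma called 4 lower in LMPP (2.94%) and 2 lower in ETP (5.13%). It called 1 higher in ETP against LMPP (2.31%), 2 higher in ETP against CLP (2.52%) and 2 lower in DN3 against ETP (6.57%). From DN2 to DN3 it called 2 lower (1.80%), and it called 0 in CLP against LMPP (1.14%) and in DN2 against ETP (0.998%). Cpa3, a mast cell protease, had a mean of 9.99 in ETP, read 11.06 on the DN2 array and had a mean of 8.89 in DN3. Mcpt8, a basophil protease, had means of 7.59 in HSC, 7.06 in ETP and 4.95 in DN3 and read 6.72 in DN2. Ms4a2, an IgE receptor chain, and Gata2 were highest in HSC, with means of 5.36 and 7.36. They had means of 4.54 and 6.56 in ETP and read 4.19 and 6.18 in DN2. The sum of 19 natural killer, innate lymphoid and mature T cell genes was 1370 to 2294 in marrow, 2536 to 3036 in ETP and DN2, and 3660 to 3681 in DN3. Most of the DN3 sum came from Gzma. From ETP to DN3 limma called 2 of these 19 genes higher and 4 lower (6.57% of all genes), and their median difference was -0.18. Gzma, granzyme A, had a mean of 7.09 in ETP and 11.18 in DN3, while Klrd1 had 7.54 and 4.31, Nkg7 10.43 and 8.90, and Ccl5 7.77 and 7.08. That of 7 B lineage genes was 3227 to 3666 in CLP and at most 1021 elsewhere, and that of 6 erythroid and megakaryocyte genes was 3977 to 4602 in HSC and at most 460 elsewhere. The part of such cells in the levels of the 8 genes was not tested.

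The genes whose profile was most like that of each of the 8 were sought among 1627 other genes with a range of at least 1, by Pearson's r over the 11 arrays, as a description. For S100a4 they were Rnf180 (r = 0.96), Anxa4 (0.96) and Ffar2 (0.94), and for S100a6 Ubash3b (0.96), Stx3 (0.94) and Mpo (0.94). Serpinb6b, a serine protease inhibitor, was closest to both calprotectin subunits, at r = 0.90 for S100a8 and 0.94 for S100a9, with means of 9.89 in ETP and 6.67 to 8.64 elsewhere. Prg3 (0.89) and Bivm (0.89) came next for S100a8, and Ugcg (0.90) and Arhgap5 (0.89) for S100a9. For S100a10 they were Nlrc4 (0.93), Fuca2 (0.91) and Chn2 (0.90), and for S100a11 Clec4e (0.90), Cd9 (0.89) and Clec4d (0.88). Anxa1 was followed most closely by Tmem176b, Rgs1 and Tceal1 (0.98 each). Anxa2 was followed by Timp2 (0.95), Aqp11 (0.94) and Patz1 (0.92), and Aqp11 read 11.25 in DN3 and 5.86 in CLP.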

How the data were processed

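Total RNA of sorted cells, extracted with Trizol and labelled with biotin by an Affymetrix whole-transcript kit, was hybridised to 11 arrays. The authors deposited log2 intensities from RMA, per the submitters' processing notes. RMA corrects background, equalises the distributions of the arrays and summarises probes, and so can compress differences of dim and very bright genes. The chip definition is not given in the sources used here. Thymic samples are described as marrow in one label, while the tissue label and the design text give thymus, which was used.

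Of 35556 probe sets, 21789 carried 1 gene symbol, 1621 several and 12146 none. The first kind was used, and for the 999 genes with several probe sets the one with the highest mean, leaving 19938 genes with no filter on low values. Means and SDs were taken over arrays. Tests used limma 3.58.1 in R 4.3.3 (lmFit and eBayes, 6 group means, two-sided, Benjamini-Hochberg over all genes); the fit was tested on simulated data. Other steps used Python 3.11.15 and pandas 2.3.3. Named genes are the 8, family and partner genes called by the F test, and the 3 most alike genes of each of the 8. S100 neighbours and up to 4 markers of a list by widest range were also named. S100a13, the remaining family genes, Ager and the EF-hand genes with a call were named in addition, after their values were seen. So were the neutrophil and granule genes beyond the 4 widest. The 8 genes and all lists were chosen with earlier results of these data known. Promoter windows and gene order come from RefSeq (GRCm38.p6). The alternatives were filters on dim genes, other scalings, averaged probe sets, other priors and weights, a replicate block, stricter thresholds and leaving out each array.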

Additional observations from a re-analysis of the deposited data

How the results depend on the processing

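The ranges of the 8 genes were recomputed under every alternative that could change them and moved by more than their pooled SD only on leaving out an array: 4.21 to 5.11 for S100a4, 2.68 to 3.44 for S100a8 and 3.53 to 4.11 for Anxa1. Without the DN2 array the ranges of S100a10 and S100a11 and the comparisons with DN2 have no value. None of these highest-minus-lowest differences changed its sign. Other differences between populations of the 8 genes were not repeated in this way. Differences that were not called could change sign, as that of S100a1 from LMPP to CLP did on leaving out an array (-0.47 to 0.54). The highest or lowest population of a gene changed in 4 of the 8, each on leaving out 1 array: S100a8, S100a10, S100a11 and Anxa1. The other results are counts of called genes among the 21 other S100 and annexin genes, and these were small, so single calls move them by over 1.5 times. Leaving out 1 array at a time gave counts of 6 to 7 for the F test, 1 to 3 for LMPP against HSC, 1 to 2 for CLP against LMPP, 0 to 2 for ETP against LMPP, 1 to 4 for ETP against CLP, 2 to 5 for ETP against HSC, 0 to 2 for DN2 against ETP and 3 to 6 for DN3 against ETP. The ETP against LMPP count of 1 became 2 under the filter of over 5 on at least 2 arrays, renewed quantile normalization, centring of the arrays, averaged probe sets, the trend and robust prior, and array weights. Which gene was added is not given here. In the main fit the uncalled family gene nearest the threshold was S100a7a, lower in ETP by 0.51 (limma adjusted p = 0.05004). The LMPP against HSC count of 2 became 1 with centred arrays and with array weights, and the DN3 against DN2 count of 0 became 1 with array weights. Under the filter of a mean over 6, which removes the dim S100a5 and Anxa9, ETP against HSC gave 2 and DN2 against ETP gave 1. At adjusted p under 0.01 the counts were 1 each for LMPP against HSC, ETP against CLP and DN2 against ETP. At adjusted p under 0.05 and a change of at least 2-fold they were 0 for ETP against LMPP, 2 for ETP against CLP, 1 for ETP against HSC, 1 for DN2 against ETP and 3 for DN3 against ETP. Beyond those named, the cause of a changed count was not tested.

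Replicate numbers are shared by the populations in the labels. With the number as a replicate block the count was 2 for ETP against CLP and 1 for DN2 against ETP, and within 1.5 times elsewhere; the calls that left the threshold were S100a5 (adjusted p = 0.05144) and Anxa3 (0.0631) in the first and S100a5 (0.06857) in the second. Deviations of same-numbered arrays correlated at r over 0.1 in 4 of 10 pairs of populations (range -0.26 to 0.28), so the numbers were not taken to pair the samples.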

Other observations

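Other genes whose proteins carry EF-hands were read beside the S100 genes. Of 21 measured, limma's F test called 5 at adjusted p under 0.05 (9 at an unadjusted p under 0.05), where 12.2% of all genes were called. Capn2, the large subunit of m-calpain, fell by 1.17 from ETP to DN3 (limma adjusted p = 0.006051), with means of 7.58 ± 0.13 and 6.41 ± 0.02 (SD, n = 2 arrays each). Rcn1, a calcium-binding protein of the endoplasmic reticulum, fell by 0.81 in the same comparison (limma adjusted p = 0.002223) and was 0.56 higher in ETP than in CLP (limma adjusted p = 0.043). Lcp1, the leukocyte actin-bundling protein, fell by 0.59 from ETP to DN3 (limma adjusted p = 0.04876). Ppp3r1, the regulatory subunit of calcineurin, was 0.56 higher in DN3 than in ETP (limma adjusted p = 0.03367), while its F test had an adjusted p of 0.05053. Gca, grancalcin, fell by 1.37 from LMPP to CLP (limma adjusted p = 0.04417). Cib1 was called by the F test (limma adjusted p = 0.04694) and had its highest mean in DN2. These genes were fitted with all arrays in place, and their calls were not repeated with arrays left out.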
